A study of Homo sapiens with 4 samples.

Results

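The matrix metalloproteinases (MMPs), ADAM and ADAMTS proteases, their inhibitors the TIMPs, and the plasminogen activation genes PLAU, PLAUR and PLAT were examined in MDA-MB-468. The set was a named list of 39 genes, taken by symbol from 56865 annotated genes: 11 secreted and 6 membrane-bound MMPs, 4 TIMPs, 8 ADAMs, 7 ADAMTS proteases and 3 plasminogen activation genes. MDA-MB-468 is a human breast cancer line that the labels class as triple negative, meaning without estrogen receptor, progesterone receptor or HER2 amplification. The cells, all at passage 12, received either the vehicle DMSO (n = 2 libraries) or 5 µM MS1943 for 3 days (n = 2). For the vehicle no duration is stated. The series title calls MS1943 an EZH2 degrader; EZH2 is the histone methyltransferase of Polycomb repressive complex PRC2. The series' purpose was to profile how the compound changes the transcriptome. All libraries come from this 1 line, grown in duplicate dishes. Whether each pair of libraries came from separate cultures is not stated beyond this, so the p-values reflect only how these libraries vary, which may be technical.

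MMPs are zinc proteases that cut collagens, laminins and other matrix proteins, as well as growth factors and receptors. They are made as inactive precursors, and plasmin, formed from plasminogen by the activators uPA and tPA, is among the enzymes that can start their activation. ADAMs are membrane zinc proteases that release the outer part of surface proteins, among them the ligands of the epidermal growth factor receptor, while ADAMTS enzymes are secreted and bind the matrix. TIMPs bind the active site of these enzymes and block it. RNA levels say nothing of how much of each enzyme is active.

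Per library, the deposited estimates summed to between 47564377 and 71378893 reads. Within each group the libraries varied beyond counting noise (chi-square divided by its degrees of freedom, 7.09 for DMSO and 6.52 for MS1943), so none was taken for a copy of another. Mitochondrial genes took 1.65% and 1.78% of reads with DMSO and 3.52% and 3.11% with MS1943, a difference that moved with treatment and whose part in the results was not tested. EZH2 transcripts went from 121 ± 6.29 to 106 ± 2.25 CPM (reads relative to the TMM-scaled library total; mean ± SD, n = 2), a log2 fold change of -0.19 ± 0.06 (edgeR adjusted p = 0.00605); the RNA does not report the level of the protein, at which a degrader acts. The 7 epithelial markers summed to 7013 and 7057 TPM (transcript abundance per unit length, summing to the same total in every library) with DMSO and to 5543 and 5569 TPM with MS1943. Their log2 fold changes ranged from -0.66 to 0.21, with a median of -0.01. The 8 fibroblast markers summed to 13.6 and 11.05 TPM with DMSO and to 18.6 and 16.2 TPM with MS1943, and 5 of them had at most 14 reads in any library. Leukocyte markers (8) summed to 191 and 193 TPM with DMSO and 150.2 and 155.6 TPM with MS1943. PTPRC, the pan-leukocyte marker, had at most 10 reads. CD14 made up nearly all of that sum with DMSO and fell to 95.9 and 103 TPM with MS1943, while CD68 rose to 31.7 and 30.6 TPM and CSF1R to 22.4 and 21.6 TPM. The 6 endothelial markers summed to 2.35 and 2.18 TPM with DMSO and 0.980 and 0.815 TPM with MS1943. The part of such markers in the results was not tested.

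Plasminogen activation genes and the sheddase genes ADAM9 and ADAM17 were higher after MS1943, ADAM10 was lower, and the 4 TIMP genes split, with TIMP2 and TIMP4 higher and TIMP1 and TIMP3 lower. Among these genes the largest relative increases were in genes nearly silent with DMSO: TIMP4, from 1 read in each DMSO library to 80 and 67 reads with MS1943, and PLAT, from 16 and 14 reads to 236 and 128. MMP7 was the most abundant secreted MMP and rose nearly as much as PLAU. Of the 39 genes, 24 had enough reads to be tested. By the edgeR quasi-likelihood test, called at a Benjamini-Hochberg adjusted p under 0.05 over all 19358 tested genes, 11 of the 24 were called higher, 8 lower and 5 not called. Among all tested genes 59.3% were called, 30.0% higher and 29.4% lower, so most expressed genes changed in this comparison and a call by itself sets a gene little apart. At least 2-fold changes were called in 4 of the 24 genes upward and 2 downward, against 7.97% and 7.93% of all tested genes. The median log2 fold change was 0.10 over the 24 genes and -0.01 over all tested genes. TIMP4 passed the filter on low reads only through its MS1943 libraries, and MMP9 and MMP11 only through their DMSO libraries, so the counts are a description. The number called lower fell from 8 to 5 without DMSO replicate 2 or without MS1943 replicate 2. Directions are relative to TMM scaling: scaling by total reads alone moved the median of all genes to -0.12 and the share called higher among all called genes from 50.5% to 39.8%. In bulk RNA, fewer cells expressing a gene and less RNA per cell cannot be told apart.

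**Figure D1:**
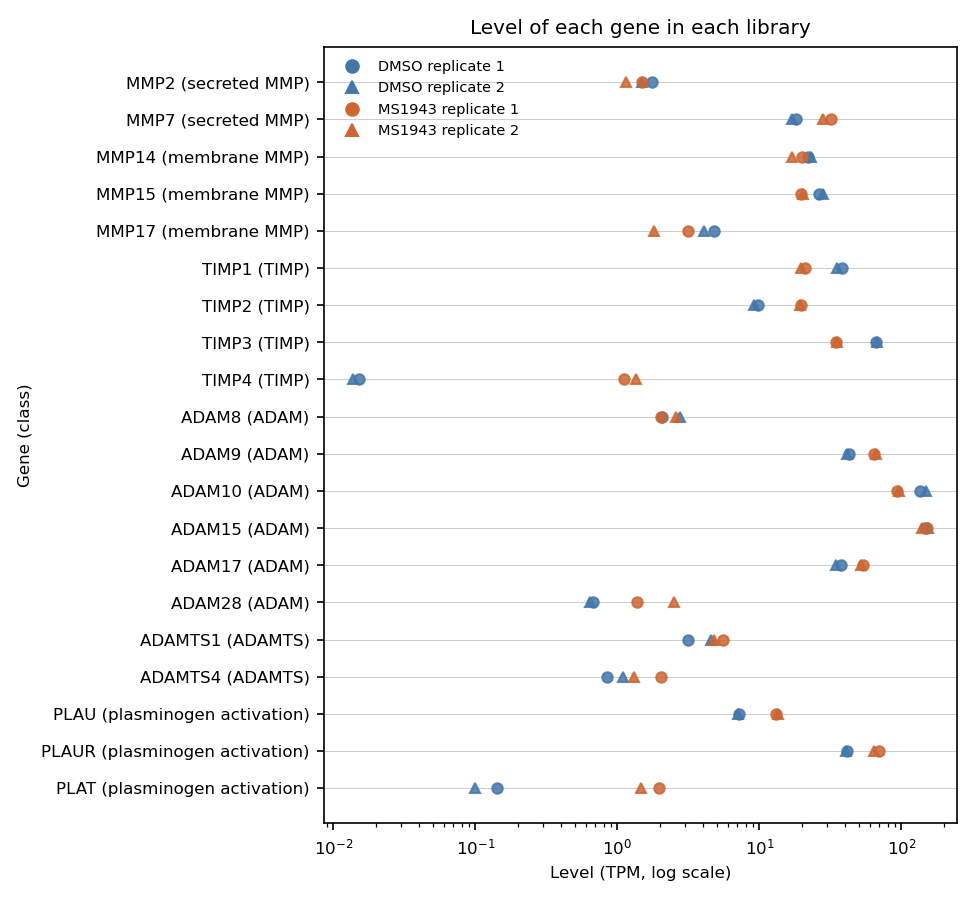
Level in TPM (log axis) of the 20 genes that reached a mean of at least 1 TPM in either group; each point is 1 library, blue for DMSO and orange for MS1943, circles for replicate 1 and triangles for replicate 2. TIMP4 and PLAT show the widest separation between groups, ADAM15 lies near 150 TPM in all libraries, and the points of TIMP3 in a group nearly coincide.

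Promoter sequences were described where available, and their part in the RNA levels was not tested. MMP7 and MMP10 lie in the same gene cluster, and both carry a match to the AP-1 motif just upstream of the start. RefSeq promoters (GRCh38.p14) were found for 19 of the 39 genes. The 250 bases before each start were searched for TGANTCA on both strands. Of the 19 genes, 3 hold a match (MMP7, MMP10 and PLAUR), against 8.06% of 27305 genes in the table. By call, that is 2 of 6 genes called higher, 0 of 6 called lower, and 0 of 2 not called and 1 of 5 that could not be tested. The stretches are shown 5′ to 3′ on the gene's strand, with the match in capitals. For MMP7 (chr11:102530754-102530997, minus strand) and MMP10 (chr11:102780629-102780878, minus strand) the part of the 250 bases free of annotated exons is given. For PLAUR (chr19:43670339-43670365, minus strand) the match is given with 10 bases on each side. In its window, 250 bases were counted as annotated exon, and the annotated gene extends to 43670547, beyond the match. The PLAUR match thus precedes the RefSeq start but lies inside the annotated gene, not in exon-free upstream sequence.
MMP7: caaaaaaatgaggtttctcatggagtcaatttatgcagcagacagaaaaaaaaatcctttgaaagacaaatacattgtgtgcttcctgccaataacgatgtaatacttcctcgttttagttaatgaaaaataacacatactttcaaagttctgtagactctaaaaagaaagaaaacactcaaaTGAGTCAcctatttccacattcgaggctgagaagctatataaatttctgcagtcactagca
MMP10: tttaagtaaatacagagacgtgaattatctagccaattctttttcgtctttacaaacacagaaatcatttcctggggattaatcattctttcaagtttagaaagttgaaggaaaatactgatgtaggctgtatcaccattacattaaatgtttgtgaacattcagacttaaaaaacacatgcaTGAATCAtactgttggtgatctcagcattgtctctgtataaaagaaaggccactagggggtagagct
PLAUR: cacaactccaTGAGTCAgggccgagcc
In MMP7 and in MMP10 the match ends 61 bases before the RefSeq start, and in PLAUR 180 bases before it. MMP7 and PLAUR were called higher with MS1943, while MMP10 had 0 reads in all 4 libraries. A match describes these letters and is not evidence of a bound factor.

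Among secreted MMPs, MMP7 (matrilysin, ENSG00000137673, hg38 chromosome 11, 102520508 to 102530753) stood at 18.0 and 16.8 TPM with DMSO and at 32.2 and 28.1 TPM with MS1943. Matrilysin is a small MMP made mostly by epithelial cells. The MMP7 log2 fold change was 0.93 ± 0.08 (SE; edgeR adjusted p = 1.39e-08). MMP2, a gelatinase typical of stromal cells, was low, at 1.75 and 1.502 TPM with DMSO and 1.48 and 1.16 TPM with MS1943, and was not called (-0.06 ± 0.16, adjusted p = 0.795). MMP9, the other gelatinase, had 11 and 12 reads with DMSO and 4 and 2 with MS1943. Its call as lower (-1.58 ± 0.67, edgeR adjusted p = 0.0487) was lost in 9 of the 11 alternative fits that tested it. Among them were DESeq2's Wald test (-1.62, adjusted p = 0.2695) and the fit allowing for transcript length (-1.61, edgeR adjusted p = 0.0627). It was also lost in each fit that left out a library, where the MMP9 log2 fold change ranged from -1.87 to -1.43. MMP11 (stromelysin 3) fell from 16 and 23 reads to 3 and 1. The ratio of its scaled reads, MS1943 over DMSO, was 0.129, with an exact 95% interval of 0.0334 to 0.357 that covers counting error only. The MMP11 call (adjusted p = 8.4e-04) was lost when the test allowed for transcript length (-1.73, adjusted p = 0.0595). MMP11 shares 218 exon bases with CHCHD10 on the other strand, and the library kit does not mark strand.

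The other 7 secreted MMPs had too few reads to test. MMP3, MMP10 and MMP12 had 0 reads in every library, which allows up to 0.0400 to 0.0656 CPM at a floor of 3 reads per library, for counting error only. MMP1, the interstitial collagenase, had 1 read in all, in MS1943 replicate 1. MMP13, collagenase 3, had 0 reads in both DMSO libraries and 7 and 1 with MS1943. MMP19 had at most 4 reads. MMP28 (epilysin) had 6 and 6 reads with DMSO against 12 and 7 with MS1943, a ratio of 1.99 whose interval of 0.916 to 4.49 includes no change. MMP1, MMP3, MMP10 and MMP13, the interstitial collagenase, stromelysins 1 and 2 and collagenase 3, were thus too low to compare.

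Of these genes, 6 (MMP7, MMP10, MMP1, MMP3, MMP12 and MMP13) lie within 435 kb on chromosome 11 (102520508 to 102955734 on hg38) with MMP20, MMP27 and MMP8, all 9 of them MMPs. Of the 9, only MMP7 and MMP20 reached 10 reads in any library. MMP20 (enamelysin), the gene next to MMP7, had 13 and 22 reads with DMSO and 13 and 8 with MS1943, and was not called (-0.40 ± 0.47, adjusted p = 0.489). MMP27 had 0 reads and MMP8 had 1. Genes flanking the cluster were expressed and moved in both directions. On the side of MMP7, TMEM123 fell (-0.32 ± 0.06), BIRC2 rose (0.54 ± 0.06), BIRC3 fell (-0.66 ± 0.07) and YAP1 fell (-0.17 ± 0.05). Beyond MMP13, DCUN1D5 rose from 107.6 and 111.8 TPM to 148 and 179.7 TPM (0.70 ± 0.06) and DYNC2H1 fell (-0.52 ± 0.18). Within the window, MMP7 was thus an expressed gene at the edge of a stretch of 8 MMP genes that were silent or nearly so.

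**Figure D2:**
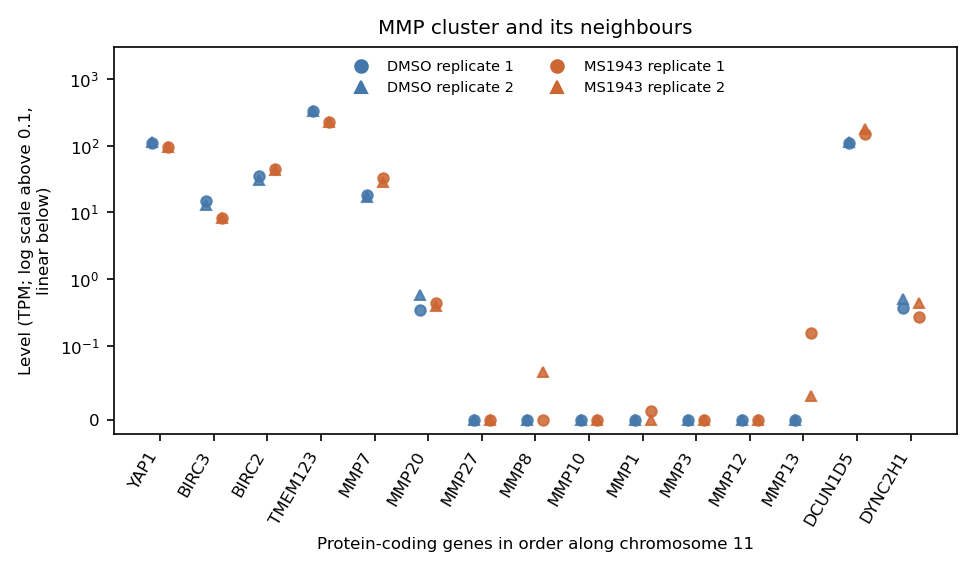
TPM in each library (logarithmic above 0.1, linear below) of the 15 protein-coding genes from YAP1 to DYNC2H1, in order along chromosome 11; blue is DMSO, orange MS1943, circles replicate 1, triangles replicate 2. MMP7 lies between 16.8 and 32.2 TPM, with both MS1943 libraries on top, and the MMP genes from MMP27 to MMP13 lie at or near 0.

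Among the membrane-bound MMPs, which cut matrix at the cell surface, 3 were called lower, 1 higher and 1 was not called. Of all tested genes, 29.4% were called lower and 30.0% higher. MMP15 stood at 26.2 and 27.9 TPM with DMSO and 19.5 and 20.2 TPM with MS1943. This fall (-0.35 ± 0.05, adjusted p = 1.6e-05) was the only call among membrane-bound MMPs that held in all 12 alternative fits. MMP14, which encodes MT1-MMP, an activator of the MMP2 precursor, went from 21.9 and 23.0 to 20.1 and 17.0 TPM (-0.16 ± 0.06, adjusted p = 0.0347). Its groups did not overlap, but the call was lost in 6 of 12 alternative fits. Among them were DESeq2's Wald test (-0.14, adjusted p = 0.113), the transcript-length offset (-0.17, edgeR adjusted p = 0.140) and protein-coding transcripts only (-0.10, edgeR adjusted p = 0.168). The log2 fold change was -0.13 without DMSO replicate 2 and -0.12 without MS1943 replicate 2. MMP17, anchored by a lipid, stood at 4.75 and 4.045 TPM with DMSO and 3.16 and 1.81 TPM with MS1943. It was called lower (-0.40 ± 0.15, adjusted p = 0.0291) on 104 to 258 reads per library, a call lost in 4 of 12 alternative fits. Among them were DESeq2's Wald test (-0.39, adjusted p = 0.149) and protein-coding transcripts only (-0.38, edgeR adjusted p = 0.0529). The MMP17 log2 fold change was -0.37 without DMSO replicate 2 and -0.29 without MS1943 replicate 2. MMP24 was called higher (0.68 ± 0.24, adjusted p = 0.0212) on 57 and 79 reads against 123 and 54. MS1943 replicate 2 exceeded the DMSO libraries only after scaling, and the call was lost in 5 of 12 alternative fits. Among them were DESeq2's Wald test (0.68, adjusted p = 0.112), total-read scaling (0.56, edgeR adjusted p = 0.0782) and the transcript-length offset (0.64, edgeR adjusted p = 0.0897). The MMP24 log2 fold change was 0.28 without MS1943 replicate 1 and 0.55 without DMSO replicate 1. MMP24 also shares 799 exon bases with MMP24OS on the other strand, and MMP24OS fell (-1.19, adjusted p = 7.91e-10). MMP25 was not called (0.11 ± 0.29, adjusted p = 0.765), and 35.2% of its exon bases overlap its antisense gene. MMP16 had 2 to 10 reads and was not tested.

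Of the 4 TIMP genes, 2 were called higher and 2 lower, beside 30.0% and 29.4% of all tested genes. TIMP3, whose protein binds to the matrix and inhibits ADAMs as well as MMPs, was the most abundant, at 65.7 and 67.6 TPM with DMSO and 34.6 and 35.3 TPM with MS1943 (-0.80 ± 0.05, adjusted p = 2.02e-10). TIMP1, a secreted inhibitor of most soluble MMPs, fell from 38.2 and 35.2 to 21.0 and 19.5 TPM (-0.71 ± 0.09, adjusted p = 6.72e-07). TIMP2, which besides inhibiting MMPs links the MMP2 precursor to MT1-MMP, rose from 9.77 and 9.23 to 19.5 and 19.3 TPM (1.15 ± 0.06, adjusted p = 1.18e-11). In each of these genes the difference was many times the spread within a group. Their groups did not overlap, which by scaled reads held for 20 of the 24 tested genes. How many of all tested genes had groups apart was not counted. TIMP4 (ENSG00000157150, hg38 chromosome 3, 12153051 to 12159351) was at 0.0152 and 0.0137 TPM with DMSO and 1.11 and 1.35 TPM with MS1943. Its ratio of scaled reads was 92.3, with an exact 95% interval of 25.1 to 769 from counting error alone (edgeR adjusted p = 1.84e-09). Those wide bounds come from the 2 reads found in the DMSO libraries together. TIMP4 passed the filter on low reads only through its MS1943 libraries, so its call is a description. Per length and by share of the 4 genes' summed TPM, TIMP3 went from 59.1% ± 1.79 to 46.1% ± 0.998 and TIMP1 from 32.5% ± 1.54 to 26.7% ± 1.16 (SD, n = 2). TIMP2 went from 8.42% ± 0.245 to 25.6% ± 0.0788 and TIMP4 to 1.63% ± 0.236. The sum fell from 113 ± 1.21 to 75.9 ± 0.535 TPM, a ratio of 0.672, or 0.885 with TIMP3 left out.

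TIMP1, TIMP3 and TIMP4 each lie inside a synapsin gene and on the opposite strand, an arrangement examined after the values were seen. Each synapsin gene, which encodes a synaptic vesicle protein, moved in the direction of the TIMP gene it holds. SYN1, around TIMP1, fell from 50 and 66 reads to 28 and 15 (-1.11 ± 0.31, edgeR adjusted p = 0.00445). SYN3, around TIMP3, fell from 230 and 282 reads to 97 and 88 (-1.12 ± 0.17, adjusted p = 1.03e-05). SYN2, around TIMP4, had 0 and 1 reads with DMSO and 18 and 10 with MS1943 (adjusted p = 1.34e-04), a ratio of 35.1 with an exact 95% interval of 5.81 to 1437 for counting error only. SYN2, like TIMP4, passed the filter on low reads only through its MS1943 libraries, so its call is a description. TIMP4 and SYN2 share 170 exon bases, 10.3% of those of TIMP4, so some of their reads cannot be told apart without strand. TIMP1 and SYN1 share 0 exon bases, as do TIMP3 and SYN3. With 3 pairs chosen in this way, no test of the shared direction was made.

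**Figure D3:**
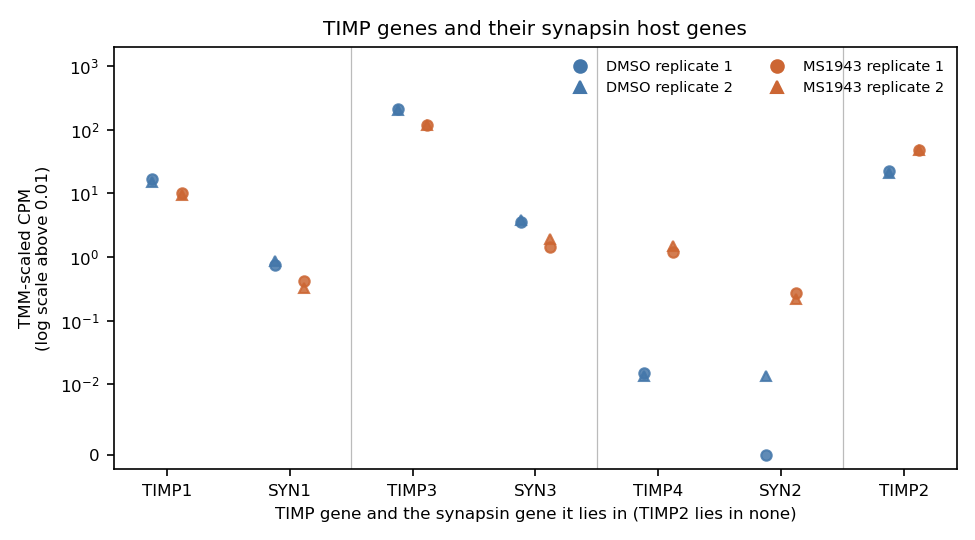
TMM-scaled CPM in each library (logarithmic above 0.01, linear below) of TIMP1, TIMP3 and TIMP4 beside the synapsin genes that contain them, and of TIMP2, which lies in no synapsin gene; blue is DMSO, orange MS1943, circles replicate 1, triangles replicate 2. Both members of the TIMP1 and TIMP3 pairs are lower with MS1943, and both members of the TIMP4 pair are higher.

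ADAM17 and ADAM9 rose while ADAM10 fell. ADAM17, the main sheddase of tumour necrosis factor and of several epidermal growth factor receptor ligands, went from 37.7 and 34.8 to 53.7 and 52.1 TPM (0.69 ± 0.06, adjusted p = 6.45e-09). ADAM9 went from 43.1 and 41.6 to 64.3 and 66.2 TPM (0.76 ± 0.06, adjusted p = 7.16e-10). ADAM10, which cuts Notch receptors and cadherins, went from 136 and 149 to 92.9 and 95.4 TPM (-0.53 ± 0.05, adjusted p = 7.79e-08). All 3 calls held in every alternative fit. ADAM15 was the most abundant ADAM at 147 and 154 TPM with DMSO and 152 and 141 TPM with MS1943, and was not called (0.07 ± 0.06, adjusted p = 0.284). ADAM8 was low and overlapping, at 2.05 and 2.77 TPM with DMSO and 2.04 and 2.60 TPM with MS1943 (0.08 ± 0.17, adjusted p = 0.712). ADAM28 rose from 56 and 79 reads (0.674 and 0.637 TPM) to 177 and 128 reads (1.38 and 2.49 TPM; 1.51 ± 0.19, adjusted p = 1.37e-06). ADAM12 and ADAM19 had at most 7 reads and were not tested. Summed over the 8 ADAMs, TPM stood at 375 ± 12.3 with DMSO and 363 ± 4.76 with MS1943 (SD, n = 2), a ratio of 0.968. By library the sums were 366.4 and 383.8 TPM with DMSO and 366.3 and 359.6 TPM with MS1943, so the groups nearly met. ADAM17 shares 1323 exon bases with IAH1 on the other strand, and IAH1 fell (-0.26, adjusted p = 0.00201).

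At the transcript level, the ADAM10 reads were shared mainly by a long coding transcript and a transcript annotated for nonsense-mediated decay. ADAM10-201, the coding form, held 42.4% ± 0.429 of the reads with DMSO and 38.6% ± 0.569 with MS1943 (SD, n = 2). ADAM10-202, the decay form, held 40.6% ± 0.933 and 43.7% ± 0.671. In TPM, ADAM10-201 went from 9.33 ± 0.142 to 5.36 ± 0.120 and ADAM10-202 from 46.6 ± 1.44 to 31.7 ± 0.228, so both were lower with MS1943. The gene's summed TPM is therefore mostly that of shorter forms, and its rank above ADAM17 and ADAM9 in TPM rests on them. By scaled reads, ADAM10 went from 177 to 122 CPM, ADAM17 from 104 to 167 CPM and ADAM9 from 105 to 178 CPM. With MS1943, ADAM10 thus ranked below both by reads. ADAM17-201 held 98.8% to 99.4% of the reads of ADAM17, and ADAM9-209 held 95.5% to 96.0% of those of ADAM9. For ADAM15, which is known for alternative splicing of its cytoplasmic tail, ADAM15-201 went from 44.05% ± 0.0523 to 47.7% ± 0.418 of reads and ADAM15-209 from 9.36% ± 0.839 to 5.84% ± 1.01. The minor form ADAM15-203 held 2.54% and 2.51% of reads with DMSO and only 0.00211% and 0.000624% with MS1943. Counted over protein-coding transcripts alone, ADAM10 still fell (-0.62 ± 0.05, adjusted p = 2.32e-06). These shares carry an assignment error of Salmon that the files do not hold, and they were not tested.

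Among the ADAMTS proteases, ADAMTS4, an aggrecan-cutting enzyme, rose from 0.848 and 1.10 to 2.04 and 1.30 TPM (0.75 ± 0.12, adjusted p = 1.52e-05). The 9773-base transcript ADAMTS4-202 held 84.3% to 94.2% of its reads. ADAMTS1, which has antiangiogenic activity, was not called (-0.02 ± 0.10, adjusted p = 0.895), at 683 and 954 reads (3.16 and 4.56 TPM) with DMSO and 749 and 531 reads (5.59 and 4.76 TPM) with MS1943, so its TPM did not overlap although its scaled reads did. With an offset for transcript length it was called higher (0.53 ± 0.16, adjusted p = 0.0206). In the Salmon estimates, the short transcript ADAMTS1-206 took 0.905% ± 1.17 of the reads with DMSO and 4.82% ± 2.26 with MS1943. The other 5 had at most 8 reads per library. ADAMTS10 had 0 in all, ADAMTS5 had 8 and 6 with DMSO and 0 and 0 with MS1943, and ADAMTS9 had 5 and 5 against 1 and 1. ADAMTS6 and ADAMTS15 had at most 6.

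All 3 plasminogen activation genes rose, beside 30.0% of all tested genes called higher, and the 3 calls held in every alternative fit. PLAU, which encodes the urokinase activator uPA, went from 7.15 and 7.08 to 13.0 and 13.5 TPM (0.98 ± 0.08, adjusted p = 1.37e-09). PLAUR, its receptor, which holds uPA at the cell surface, went from 41.0 and 40.7 to 69.3 and 64.4 TPM (0.88 ± 0.06, adjusted p = 1.74e-10). PLAT, which encodes the tissue activator tPA, went from 0.141 and 0.0998 to 1.96 and 1.47 TPM (3.89 ± 0.25, adjusted p = 1.05e-10). The summed TPM of the 3 genes went from 48.1 ± 0.300 to 81.8 ± 3.46, a ratio of 1.70, or 2.07 without PLAUR. The receptor remained by far the most abundant of the 3 per length, at 84.97% ± 0.0789 and 81.7% ± 0.734 of the sum. In DMSO, 52.5% and 35.8% of the few PLAT reads were assigned to a transcript with a retained intron, against 0.851% and 1.59% with MS1943, where PLAT-201 held 86.6% ± 5.10. PLAUR-203 was the leading PLAUR form in both groups, at 61.5% ± 5.08 and 65.4% ± 2.11 of reads. PLAU shares 31.05% of its exon bases with C10orf55 on the other strand, which was under 0.42 CPM in all libraries.

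**Figure D4:**
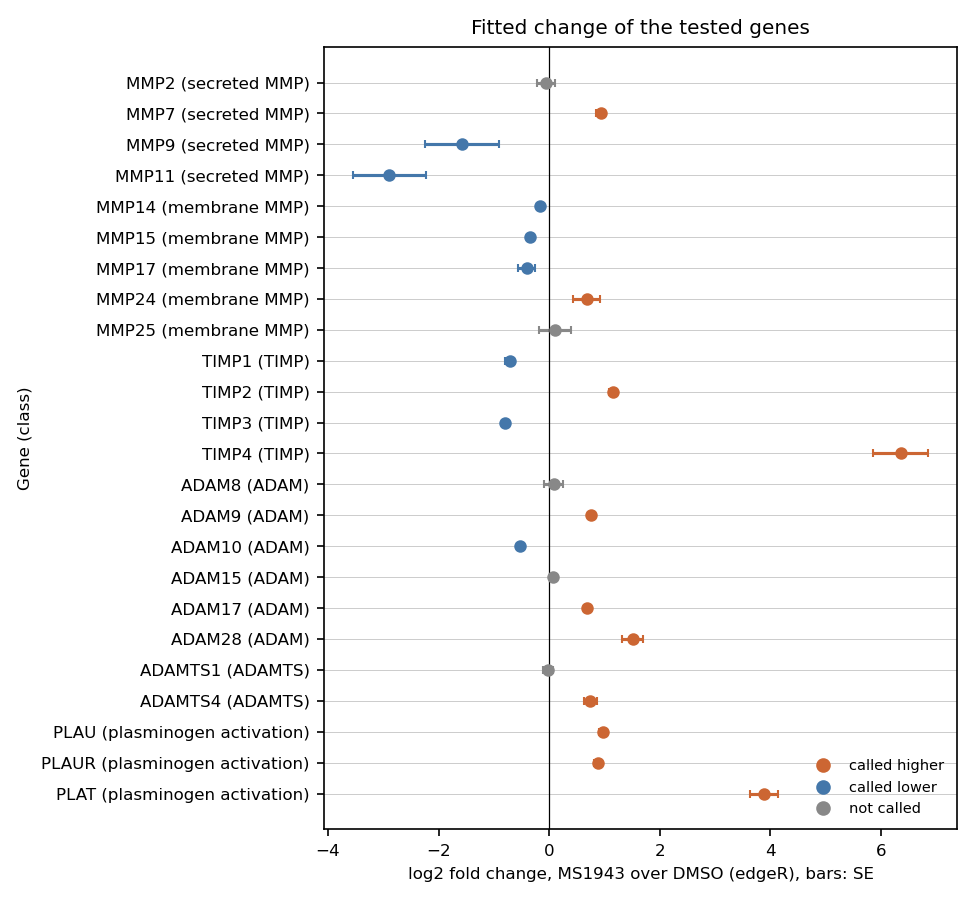
Fitted log2 fold change, MS1943 over DMSO, with its standard error, of the 24 genes that could be tested, by class; orange was called higher, blue lower and grey not called (edgeR, adjusted p under 0.05). TIMP4 (6.36, a fitted value that depends on the prior count) and PLAT (3.89) lie farthest to the right and MMP11 (-2.89) and MMP9 (-1.58) farthest to the left, with the widest error bars on genes of few reads.

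Genes that act on or with these proteases were taken from 9 lists, 126 genes in all. Of 12 genes of inhibitors and binding proteins of plasminogen activation, 7 rose and 1 fell, beside 30.0% and 29.4% of all tested genes. In either direction 66.7% were called, beside 59.3% of all tested genes. SERPINE2, an inhibitor of uPA, tPA and thrombin, rose from 1.80 and 1.82 to 17.8 and 18.6 TPM (3.41 ± 0.10, adjusted p = 8.82e-16). SERPINF2, the plasmin inhibitor, rose by 0.997 ± 0.08 and ANXA2, a surface binding site for plasminogen and tPA, by 0.65 ± 0.06, while the abundant ENO1 was not called (0.15 ± 0.07, adjusted p = 0.0568). Plasminogen itself (PLG) had 8 to 16 reads per library.

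Of 10 partner genes of ADAM10 and ADAM17, 3 rose and 5 fell, beside 30.0% and 29.4% of all tested genes. The tetraspanins that escort ADAM10 went both ways: TSPAN33 (-0.73 ± 0.07), TSPAN10 (-0.98 ± 0.10), TSPAN17 (-0.46 ± 0.06) and TSPAN15 (-0.27 ± 0.06) fell, and TSPAN5 (0.67 ± 0.10) rose. TSPAN14 was called higher (0.18 ± 0.05), although its TPM overlapped between groups. RHBDF2, which encodes the ADAM17 carrier iRhom2, rose by 0.30 ± 0.06, and RHBDF1 was not called (-0.13 ± 0.06, adjusted p = 0.0963). The rhomboid protease gene RHBDL2 fell (-0.87 ± 0.06). TSPAN5, TSPAN14, TSPAN15, RHBDF2 and RHBDF1 were added to these names after their values were seen.

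Of 25 tested genes of surface proteins that ADAM10 or ADAM17 can release, 17 rose and 5 fell, beside 30.0% and 29.4% of all tested genes. IL6R, the interleukin 6 receptor, rose from 0.391 and 0.555 to 9.58 and 8.11 TPM (4.44 ± 0.10). HBEGF, a ligand of the epidermal growth factor receptor, rose from 1.30 and 1.40 to 10.1 and 10.4 TPM (3.05 ± 0.10), and the Notch ligand JAG1 from 16.8 and 17.9 to 63.8 and 58.8 TPM (1.96 ± 0.06). CD44, a hyaluronan receptor and the gene of the list with the highest mean TPM over the 4 libraries, rose from 888 and 898 to 1754 and 1763 TPM (1.002 ± 0.06). The list's median log2 fold change was 0.36, against -0.01 for all tested genes.

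Among other inhibitors and inducers of MMPs, 3 rose and 5 fell of 10 tested; for this list and the next ones, 30.0% of all tested genes were called higher and 29.4% lower. BSG, the MMP inducer EMMPRIN, fell from 481 and 481 to 345 and 336 TPM (-0.36 ± 0.06), and PCOLCE, an enhancer of procollagen processing, fell (-1.13 ± 0.14). Its paralog PCOLCE2 (2.60 ± 0.22) and LCN2, which can bind MMP9 (0.48 ± 0.06), rose. Of 10 tested convertases and membrane serine proteases, 3 rose and 4 fell: FURIN, which activates membrane MMP and ADAM precursors, rose by 0.25 ± 0.06, and ST14 (matriptase, -0.56 ± 0.06) and TMPRSS4 (-0.66 ± 0.10) fell, with SPINT2 not called (0.07 ± 0.06, adjusted p = 0.338). Of 13 tested cathepsins, astacins and further matrix proteases, 6 rose and 4 fell, with CTSL higher (1.10 ± 0.08), CTSS lower (5.23 and 6.19 against 2.86 and 2.19 TPM), MME (neprilysin) lower (-0.45 ± 0.06) and CTSD not called (-0.04 ± 0.06, adjusted p = 0.616). The remaining MMP, ADAM and ADAMTS genes were mostly silent. Of 37 such genes, 15 were tested, and edgeR called 0 higher and 2 lower (0 and 4 at an unadjusted p under 0.05; 0 and 1 with DESeq2): ADAM22, a catalytically inactive family member (-1.41 ± 0.09), and MMP23B (-1.48 ± 0.56, on 4 to 26 reads, having passed the filter through its DMSO libraries). ADAMTS17, the most abundant ADAMTS among them, was not called (-0.17 ± 0.08, adjusted p = 0.083).

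**Figure D5:**
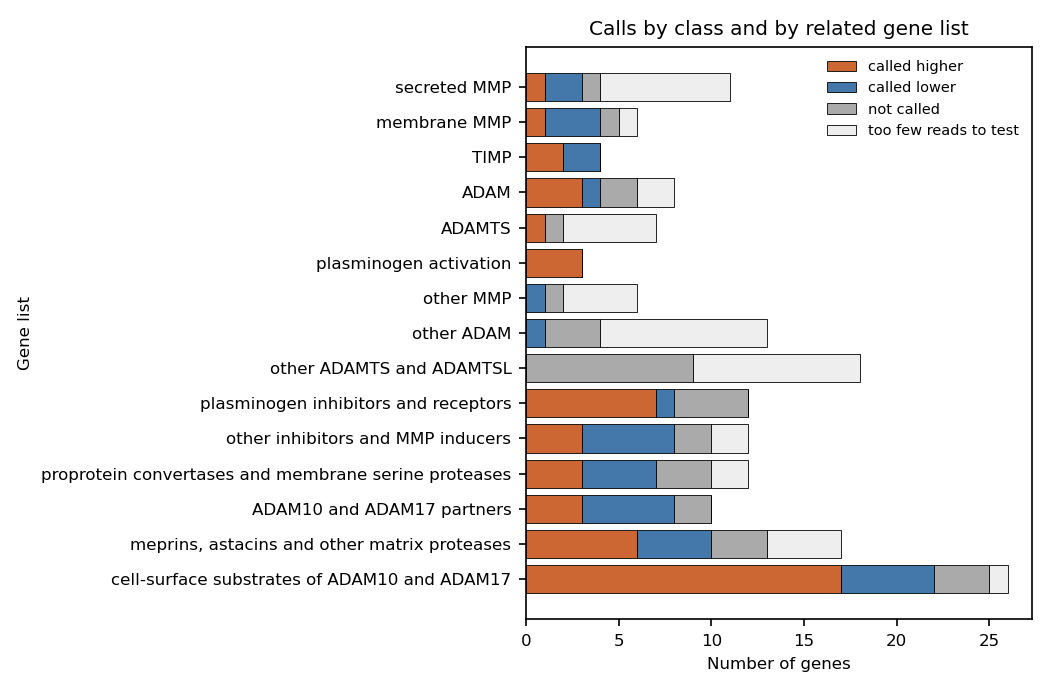
Number of genes (horizontal axis) called higher, called lower, not called, or with too few reads to test, for the 6 classes (top) and the 9 related gene lists (below). All 3 plasminogen activation genes are called higher, the 4 TIMPs divide evenly, and the list of surface substrates has the most genes called higher, 17 of 26. Of all tested genes, 30.0% were called higher and 29.4% lower.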

How the data were processed

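The 4 libraries were made from poly(A) RNA with a TruSeq v2 kit, per the labels' protocols, which does not mark strand. The submitters' processing notes name hg38, DESeq2, R 3.4.3 and Salmon 0.9.1. Their annotation release and Salmon settings: not given in the sources used here. Deposited files hold Salmon's estimated counts and TPM per transcript, per the file headers.

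Transcripts were matched to GENCODE 29 without their version (193348 of 197490, after merging pseudoautosomal copies; the unmatched held 0.482% to 0.496% of reads). Reads and TPM were summed per gene, and read sums rounded. Groups were compared by quasi-likelihood F test (edgeR 4.0.16, R 4.3.3) with TMM, filterByExpr and treatment alone, adjusted by Benjamini-Hochberg over 19358 genes; the SE is the log2 fold change divided by the root of F. The edgeR test was also run on counts simulated from its own fitted spread with few changed genes. That does not check it where most genes change, as here. The genes, the lists and the alternatives were chosen with earlier results of these data known. Genes with a mean of at least 1 TPM in either group were described by library. From each list, the up to 3 called genes with the smallest adjusted p and the most abundant were named. Alternatives included DESeq2 1.42.0 and leaving out each library.

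Planned protein motifs were not analysed here. An NF-kB-type motif (3 G, any 5 bases, 2 C) occurs in 57.8% of promoter genes and in 15 of 19 here, and at least 2 GGAA in 80.0% and in 15 of 19. By call, the NF-kB-type motif was in 5 of 6 genes called higher and 6 of 6 called lower. At least 2 GGAA were in 6 of 6 called higher and 4 of 6 called lower.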

Additional observations from a re-analysis of the deposited data

How the results depend on the processing

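Across 12 alternative fits, 10 of the 11 genes called higher (the exception was MMP24) and 4 of the 8 called lower (MMP15, TIMP1, TIMP3 and ADAM10) were called in the same direction in every fit that tested them; no called gene reversed. The number called lower, 8, went to 5 with the transcript-length offset, 5 with DESeq2's Wald test and 4 with protein-coding transcripts only, an alternative chosen after seeing the data. Leaving out each library in turn gave 5 to 7 called lower and 10 or 11 called higher. In those fits the lone library of a group is assumed to vary like the others. Among genes not called, the log2 fold change reversed to -0.0036 (MMP25), -0.035 (ADAM8) and -0.039 (ADAM15) with total-read scaling and to -0.38 (MMP25) and 0.53 (ADAMTS1) with the length offset. With a library left out, MMP2 ranged from -0.277 to 0.0913, reversing without DMSO replicate 1 or MS1943 replicate 2. ADAM8 ranged from -0.0985 to 0.284, reversing without replicate 1 of either group, and ADAMTS1 from -0.158 to 0.134, reversing without DMSO replicate 2. The cause was not tested. The summed TPM ratio of secreted MMPs, 1.62, reversed to 0.804 without MMP7, that of TIMPs moved to 0.885 without TIMP3 and that of plasminogen activation genes to 2.07 without PLAUR. No paired analysis was possible because the labels give the libraries no replicate numbers: the titles hold letters (A and E for DMSO, BCD and FGH for MS1943) whose meaning is not stated, and the numbers 1 and 2 used here follow accession order and only name a library. Depth limits the 15 untested genes, which had at most 12 reads in any library.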
